A study of Mus musculus with 2208 samples.

Results

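The cells described here are hippocampal microglia sorted from CKp25 mice 6 weeks after p25 was switched on, split within each mouse by how much of a homeostatic gene set they carried. Each cell was scored by its mean log2(FPKM + 1) over 6 genes: P2ry12, P2ry13, Tmem119, Slc2a5, Gpr34 and Cx3cr1. In each of 4 mice the cells were ranked by that score and cut into 3 equal parts. The upper part is called high-score here and the lower part low-score. Of 288 wells from these mice, 227 cells entered the ranking (40, 56, 51 and 80 in mice 1 to 4), after 57 wells with fewer than 1000 genes at an FPKM of 1 or more and the first well of each mouse were left out. The high-score group held 13, 18, 17 and 26 cells in mice 1 to 4, 74 in all, and the low-score group the same numbers, so 148 cells were compared out of 2208 wells in the series.

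The CKp25 mice carry an inducible p25 transgene that the CK driver, a tetracycline-controlled activator under the CaMKII-alpha promoter, switches on in forebrain neurons; p25 is a truncated activator of the kinase Cdk5. The reference was 3 CK littermates of the same time point, which carry the driver without p25, and their cells were split in the same way (59 high-score and 59 low-score cells). Both genotypes were 4 months and 2 weeks old at 6 weeks of induction. Single cells positive for CD11b and CD45 were sorted into 96-well plates and made into Smart-seq2 libraries, and expression is given as FPKM, fragments scaled by transcript length and by the mapped total of the library.

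In the healthy brain microglia hold a surveying state marked by purinergic receptors such as P2ry12 and P2ry13, which sense nucleotides from injured cells, by the membrane protein Tmem119, the sugar transporter Slc2a5, the lysophospholipid receptor Gpr34 and the fractalkine receptor Cx3cr1, through which neurons signal to microglia. Near dying neurons and plaques these genes are known to go down while genes of lipid handling, antigen presentation and the interferon response go up. MHC class II molecules present peptides from outside the cell to helper T cells. Their genes are switched on together by the coactivator Ciita through a shared promoter module whose parts are the X and Y boxes.

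Because the scores chose the cells, the score genes are given as a description only. The mean score was 8.98, 8.37, 7.98 and 8.26 in high-score cells of mice 1 to 4, against 5.68, 4.91, 4.41 and 4.42 in low-score cells. The lowest high-score cells stood at 8.32, 7.65, 7.40 and 7.45 and the highest cells of the middle part beside them at 8.23, 7.28, 7.38 and 7.40. At the other edge the lowest middle cells stood at 7.07, 6.24, 5.74 and 6.35 and the highest low-score cells at 7.02, 5.93, 5.71 and 6.25. The parts are ranges of one ranking, not cell types.

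The 6 genes differed unequally along the score. Slc2a5 had levels (mean log2(FPKM + 1) over cells) of 7.56, 5.77, 6.21 and 4.38 in high-score cells, against 0, 1.73, 0.75 and 0.19 in low-score cells, and was found in 90.5% ± 12.7 and 14.7% ± 14.4 of the cells (SD, n = 4 mice). P2ry12 had 9.40, 9.41, 8.24 and 9.20 in high-score cells, against 6.84, 5.79, 4.21 and 4.50 in low-score cells. Cx3cr1 was the least spread, with 9.53, 9.41, 9.12 and 9.34 in high-score cells, against 8.06, 8.20, 7.29 and 8.23 in low-score cells, and it was found in every cell of both groups. Tmem119 was still found in 88.5% ± 3.15 of low-score cells and Gpr34 in 78.4% ± 5.93.

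Measured against the pooled CK cells, most high-score cells scored below the median. The median cell of the CK mice at 6 weeks scored 9.23 (179 cells, 90 of them from CK mouse 3), and 6 of 74 high-score cells and 0 of 74 low-score cells reached it. By mouse the CK medians were 8.87, 9.23 and 9.33. The median high-score cell of CKp25 mouse 1, at 8.91, lay above that of CK mouse 1. Those of CKp25 mice 2 to 4 (8.26, 7.95 and 8.16) lay below all CK medians. Mouse 1 supplied 4 of the 6, and without it 2 of 61 high-score cells (3.28%, against 8.11% with it) reached the CK median. All 74 high-score cells, 17 of the 79 middle cells and 0 low-score cells reached 7.20, the score that all but the lowest 5% of CK cells had. The word retained therefore applies relative to other cells of the same mouse. All 74 cells of each group carried at least 3 of 12 microglia markers, a count that includes the 6 score genes. In addition, 1 high-score and 9 low-score cells carried 3 or more markers of border-associated macrophages. The summed level of the 6 microglia markers outside the score was 50.01 to 53.5 over the mice in high-score cells and 38.2 to 43.7 in low-score cells.

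**Figure D1:**
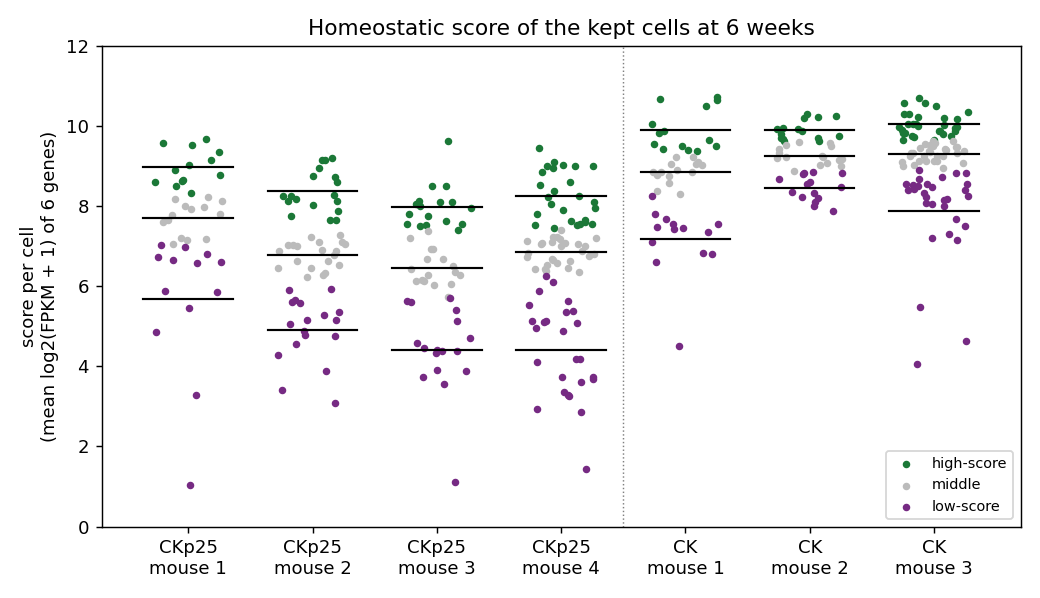
Score of each kept cell at 6 weeks (y axis, mean log2(FPKM + 1) of the 6 genes) by mouse (x axis), 4 CKp25 mice left of 3 CK mice. Points are cells coloured by their part and lines are the mean of each part. High-score CKp25 cells average 7.98 to 8.98, and few lie above 9.23, the median of all CK cells pooled.

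A score over a few genes can depend on how many genes were found in a cell, so genes per cell were compared first. Leaving out the 6 score genes, high-score cells had 1946, 2830, 2591 and 2599 genes per cell in mice 1 to 4, against 1824, 2198, 1613 and 2171 in low-score cells. The difference was largest in mouse 3 and smallest in mouse 1, and high-score cells had more genes in 4 of 4 mice. The means were 2491 ± 380 and 1951 ± 282 (SD, n = 4), a difference of 540 ± 360, with the smallest two-sided p that an exact sign-flip permutation of 4 mice allows (p = 0.13). The CK mice had a difference of 637 in the same direction (3 of 3 mice).

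A second split was therefore made after regressing the score on genes per cell within each mouse. Under this corrected score high-score cells had 2153 and low-score cells 2151 genes per cell, a difference of 1.59 ± 86.9, while 61 of the 74 high-score and 64 of the 74 low-score cells stayed in their part and 0 crossed to the opposite one.

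**Figure D2:**
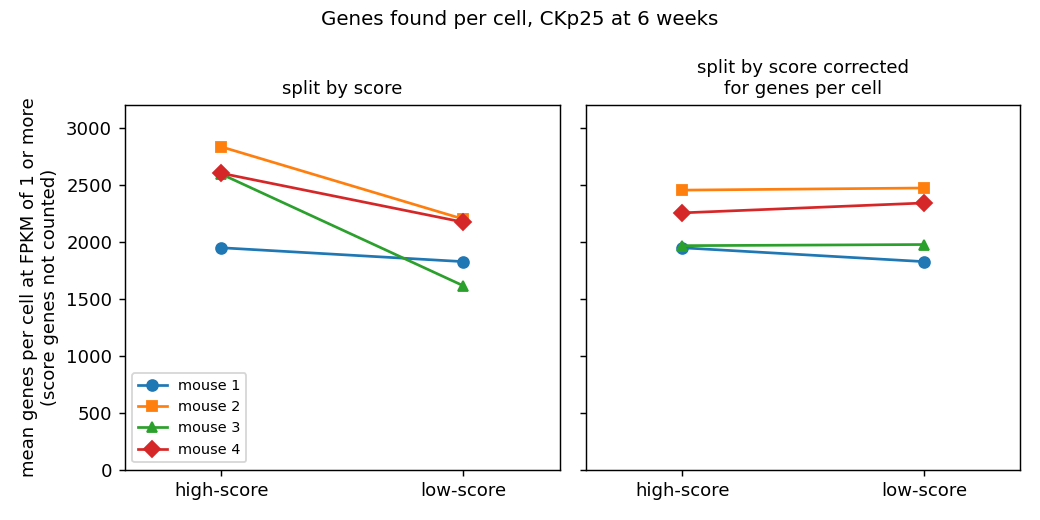
Mean genes per cell at an FPKM of 1 or more, score genes not counted (y axis), in high-score and low-score cells of each CKp25 mouse (x axis); one line per mouse. The difference of 540 genes under the score (left) is 1.59 under the score corrected for genes per cell (right).

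Some libraries stand apart. In mouse 1 of both genotypes the ribosomal RNA gene Rn45s held 0.984% (CKp25) and 1.27% (CK) of the summed FPKM, against 8.18% to 11.4% in the other CKp25 mice and 10.5% and 11.08% in the other CK mice. Mouse 3 of the CKp25 group had 89 wells of which 51 were kept, and its low-score cells had a median summed FPKM of 240149, against 414303 to 473671 in low-score cells of the other mice. A further 7 wells of mouse 2 have names that repeat another well name with a suffix, and 2 of them are high-score and 4 low-score. The read depth of single cells is unknown, as FPKM keep no counts; the submitters state a median of 251353 mapped reads over 2183 libraries. Zeros are frequent (91.01% of values at 6 weeks, and Gapdh is listed at 0 in 31.5% of wells), so a level of 0 does not show absence.

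The genes called higher in high-score cells included further homeostatic microglia genes, such as Olfml3, Siglech and Selplg. Of 6173 genes tested, 16 were higher in high-score cells (0.259%) and 1 was lower (0.0162%) at an adjusted p under 0.05 in limma's moderated test paired within mouse, with Benjamini-Hochberg adjustment over all genes. At an unadjusted p under 0.05 the counts were 857 and 49. All tested genes had a median difference of 0.29 on the log2 scale, and the differences of Fgd2 and Lilrb4 are also given less that shift. The cells were grouped by genes of the same libraries, so these p-values say how regularly a gene followed the score over 4 mice, not that 2 independently defined populations differ.

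Fgd2, an activator of the small GTPase Cdc42, had the largest difference. Its level was 7.46, 6.95, 5.27 and 6.37 in high-score cells of mice 1 to 4, against 3.99, 3.72, 3.38 and 2.52 in low-score cells. The lowest high-score value lay above the highest low-score value, and the difference was 3.11 ± 0.54 (SE; 2.82 less the shift; adjusted p = 0.00401). Fgd2 was found in 93.7% ± 8.37 of high-score cells and 53.1% ± 10.2 of low-score cells.

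Of 39 tested members of a homeostatic microglia list without the score genes, 8 were higher and 0 lower, and all 39 had differences above 0, with a median of 1.38 beside 0.29 for all genes. Among the 8 were Olfml3, Sparc, Selplg, Siglech, Gpr56, Adora3 and Ecscr. The list is drawn from what is known to go together with P2ry12 and Tmem119 in microglia, so its direction follows from the way the cells were ranked.

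Among its secreted and matrix proteins, Olfml3, a glycoprotein typical of microglia, had 10.33, 8.88, 8.96 and 9.28 in high-score cells, against 6.87, 7.49, 6.63 and 5.46 in low-score cells. Sparc, a matricellular protein, had 9.51, 8.40, 8.20 and 8.01 in high-score cells, against 5.66, 6.08, 5.72 and 6.85 in low-score cells. Neither gene's groups overlapped, and both were found in every high-score cell and in about 80% of low-score cells (Olfml3 80.8% ± 9.48, Sparc 80.4% ± 9.61). The differences were 2.75 ± 0.48 for Olfml3 (adjusted p = 0.00401) and 2.46 ± 0.50 for Sparc (adjusted p = 0.0169).

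Of the surface proteins, Siglech, a sialic acid-binding lectin, had 8.11, 8.02, 7.84 and 8.09 in high-score cells, against 5.63, 5.96, 6.25 and 4.97 in low-score cells, without overlap (difference 2.31 ± 0.49, adjusted p = 0.0239). The 4 high-score values of Siglech lay within 0.27 of each other. Selplg, the ligand of P-selectin, had 9.12, 8.45, 8.23 and 8.42 in high-score cells, against 7.06, 5.59, 5.81 and 6.49 in low-score cells, again without overlap (difference 2.32 ± 0.48, adjusted p = 0.0169).

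Gpr56, an adhesion receptor, and Adora3, the adenosine A3 receptor, had differences of 2.46 ± 0.54 and 2.19 ± 0.50 (adjusted p = 0.0254 and 0.0308), and their groups did not overlap. Adora3 was listed at 0 in all low-score cells of mouse 1. Ecscr was scarce, found in 34.9% ± 18.9 of high-score cells and 3.82% ± 2.70 of low-score cells. Lpar6, a receptor for lysophosphatidic acid outside the list, had 4.75, 3.83, 3.44 and 3.74 in high-score cells, against 1.06, 3.24, 1.26 and 1.14 in low-score cells, with a difference of 2.26 ± 0.53 (adjusted p = 0.0430). Mouse 2 had the narrowest gap for Lpar6.

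The enzymes among the called genes were Ptgs1, the constitutive cyclooxygenase, Gal3st4, a galactose sulfotransferase, and Ldhb, a lactate dehydrogenase subunit. Ptgs1 had 7.16, 6.17, 6.78 and 5.95 in high-score cells, against 4.75, 2.84, 3.95 and 3.66 in low-score cells, with no overlap (difference 2.71 ± 0.53, adjusted p = 0.0112). Gal3st4 was found in 69.8% ± 5.83 of high-score cells and 32.5% ± 6.65 of low-score cells, with a difference of 2.49 ± 0.51 (adjusted p = 0.0169). Ldhb had a difference of 2.44 ± 0.57 (adjusted p = 0.0427) with mouse 2 nearly level, at 5.26 in high-score cells, against 4.96 in low-score cells. Scoc, a Golgi protein, had a difference of 2.57 ± 0.56 (adjusted p = 0.0239), and mouse 4 had more than any other mouse. Also called were Rtn4rl1, a Nogo receptor relative, and Tmem100, a membrane protein, with differences of 2.18 and 1.75.

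Lilrb4, an inhibitory receptor of myeloid cells, was the one gene called lower in high-score cells. Its level was 0, 0.96, 0.79 and 0.68 in high-score cells of mice 1 to 4, against 3.35, 2.42, 1.67 and 3.22 in low-score cells. The groups did not overlap, and the gene was found in 11.5% ± 8.1 of high-score cells and 41.1% ± 9.06 of low-score cells. The difference was -2.06 ± 0.45 (-2.35 less the shift; adjusted p = 0.0239). Reads of Lilrb4 may be shared with its close copy Gp49a, so the level is uncertain.

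The number of genes called was unstable. All 17 genes kept their sign in every one of the 27 other fits of this comparison. These fits reuse the same mice, and the 17 were picked for large differences, so kept signs are not separate support. Left out one at a time, mice 1, 2, 3 and 4 left 20, 1, 14 and 11 genes called, of which 9, 1, 12 and 8 were among the 17. The 1 gene left without mouse 2 was Olfml3. Without the cells that carried 3 or more markers of another cell type 0 genes passed. At an unadjusted p under 0.05 there were 734 higher and 51 lower, and the smallest adjusted p was 0.0670. Some differences moved little, such as 2.99 for Fgd2 (from 3.11), 2.63 for Ptgs1 (from 2.71) and 2.65 for Scoc (from 2.57). Others shrank, such as 1.86 for Ldhb (from 2.44), 2.24 for Gal3st4 (from 2.49) and 2.26 for Sparc (from 2.46). Without the 7 suffixed wells 6 genes passed, all among the 17. A fit that ignored which mouse the parts came from called 0 genes (640 and 41 at an unadjusted p under 0.05). With quantile normalization, which forces the same distribution on every profile, the split of calls was 11 higher and 18 lower rather than 16 and 1.

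When the score was corrected for genes per cell, 4 of the 39 homeostatic list members passed as higher in high-score cells (8 under the score) and 4 of 8 genes of MHC class II as lower. All 39 homeostatic differences were still above 0, with a median of 0.94. This split called 6 genes higher (0.0972%) and 11 lower (0.178%) of 6173, with 310 and 245 at an unadjusted p under 0.05 and a median difference of 0.05 over all genes. The 17 genes called by each split had 6 in common, among them Fgd2, Olfml3, Siglech, Selplg and Lilrb4, and all genes called by one split had the same sign in the other. The other 11 genes called by the score did not pass under the corrected score. Among them Sparc had a corrected difference of 1.98 ± 0.43 (adjusted p = 0.0565), Ptgs1 of 1.92 ± 0.45 (adjusted p = 0.0965), Gal3st4 of 1.88 ± 0.47 (adjusted p = 0.122) and Ecscr of 1.96 ± 0.48 (adjusted p = 0.118). Gpr56, Adora3, Lpar6, Scoc and Ldhb had corrected differences of 1.65 to 1.93 (adjusted p = 0.175 to 0.339). Of the 11 genes called by the corrected split alone, Ccl3, Cybb, Tmem176b, Id2 and Sepp1 lie outside the rule by which genes are named here and were chosen after their values were seen.

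The steadiest of them was H2-Aa, the alpha chain of the MHC class II molecule I-A. Its level under the corrected split was 1.33, 0.77, 0.75 and 1.66 in high-score cells of mice 1 to 4, against 6.59, 4.07, 3.26 and 5.71 in low-score cells. The highest high-score mouse lay well under the lowest low-score mouse. H2-Aa was found in 15.3% ± 5.49 of high-score cells and 53.6% ± 9.89 of low-score cells, so the difference of -3.78 ± 0.51 (adjusted p = 0.00153) is one of how many cells carried the transcript as well as of its level. Under the uncorrected split mouse 3 turned the other way (2.48 in high-score cells, against 2.04 in low-score cells), and the difference of -2.41 had an adjusted p of 0.0675.

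Cd74, the invariant chain that escorts class II molecules, had 5.43, 3.04, 2.95 and 6.31 in high-score cells, against 6.95, 7.13, 6.73 and 8.84 in low-score cells, without overlap. Its difference was -2.98 ± 0.47 (adjusted p = 0.00525). H2-Ab1, the beta chain of I-A, and H2-Eb1, the beta chain of I-E, had differences of -2.87 ± 0.48 and -2.74 ± 0.46 (adjusted p = 0.00525 each). Together 4 of the 8 tested class II genes were lower and 0 higher, with a list median of -1.50 beside 0.05 for all genes. Of the other 4 members 3 had differences above 0. In the uncorrected split, cells of the middle part had H2-Aa levels of 5.06, 4.1, 3.27 and 5.43, against 6.59, 3.31, 2.04 and 5.56 in low-score cells, so middle cells had less than low-score cells in mice 1 and 4 and more in mice 2 and 3.

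The promoters of H2-Aa and H2-Eb1 are shown as those, among the class II genes called lower, in which the same Y-box core was found. Each stretch is 120 bases of RefSeq sequence on the GRCm38.p6 build, H2-Aa at chr17:34287825-34287944 on the minus strand and H2-Eb1 at chr17:34305735-34305854 on the plus strand, written 5′ to 3′ with the core CTGATTGG in capitals.
H2-Aa: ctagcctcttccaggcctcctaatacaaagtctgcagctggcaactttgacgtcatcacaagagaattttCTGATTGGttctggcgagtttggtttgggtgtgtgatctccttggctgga
H2-Eb1: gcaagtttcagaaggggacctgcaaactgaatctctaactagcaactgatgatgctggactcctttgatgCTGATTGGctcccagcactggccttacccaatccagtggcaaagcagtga
The capitals begin 51 bases before the gene start in H2-Aa and 62 bases before it in H2-Eb1. In windows of 300 bases (250 before the start and 50 after), searched on both strands, the letters CTGATTGG occur in 1346 of 32851 promoters (4.1%). Of the 10 class II genes listed, 7 have such a window and 3 hold the letters, the other being H2-Oa. H2-Oa was not called, while H2-Ab1 and Cd74 were called lower and are not among the 3. Genes without a window could not be searched. A match describes the letters only.

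The other genes lower in high-score cells under the corrected split were Lilrb4, Cybb, Apoe, Fabp5, Ccl3, Tmem176b and Id2. Lilrb4 had a difference of -2.51 ± 0.42 (adjusted p = 0.00525) and Cybb, the catalytic subunit of the phagocyte NADPH oxidase, of -2.30 ± 0.43 (adjusted p = 0.0149). Apoe, the lipid carrier, was found in nearly every cell, with 8.21, 11.88, 12.06 and 12.69 in high-score cells, against 10.24, 14.17, 12.94 and 13.11 in low-score cells. Its groups overlapped, since mouse 1 lay far below the other mice in both, yet within each mouse low-score cells had more (difference -1.41 ± 0.27, adjusted p = 0.0164). Fabp5, a fatty acid-binding protein, had a difference of -1.55 ± 0.33 (adjusted p = 0.0440).

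Ccl3, an inflammatory chemokine, had a difference of -2.27 ± 0.45 (adjusted p = 0.0246) under the corrected split and of -0.80 under the uncorrected one, where mouse 3 went the other way. Reads of Ccl3 may be shared with related chemokine genes. Tmem176b, a membrane protein of antigen-presenting cells, and Id2, an inhibitor of basic helix-loop-helix transcription factors, had differences of -2.56 ± 0.47 and -2.18 ± 0.47 (adjusted p = 0.0149 and 0.0477). Sepp1, the selenium carrier, was the one gene called higher by the corrected split alone (difference 1.47 ± 0.29, adjusted p = 0.0260).

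The corrected split was also fitted in 7 further ways, leaving out each mouse, the cells with markers of another type or the suffixed wells, or ignoring the mouse. H2-Aa passed in 7 of 7, with differences between -4.60 and -3.28 and adjusted p between 0.000129 and 0.0412. Cd74 passed in 5 of 7 (adjusted p between 0.00214 and 0.109), while H2-Ab1, H2-Eb1, Lilrb4, Fgd2, Olfml3, Selplg and Apoe passed in 4 and the remaining 8 genes in 1 to 3. Without mouse 1, 2, 3 or 4 this split called 3, 31, 10 and 3 genes, without the suffixed wells 9, and ignoring the mouse 3.

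**Figure D3:**
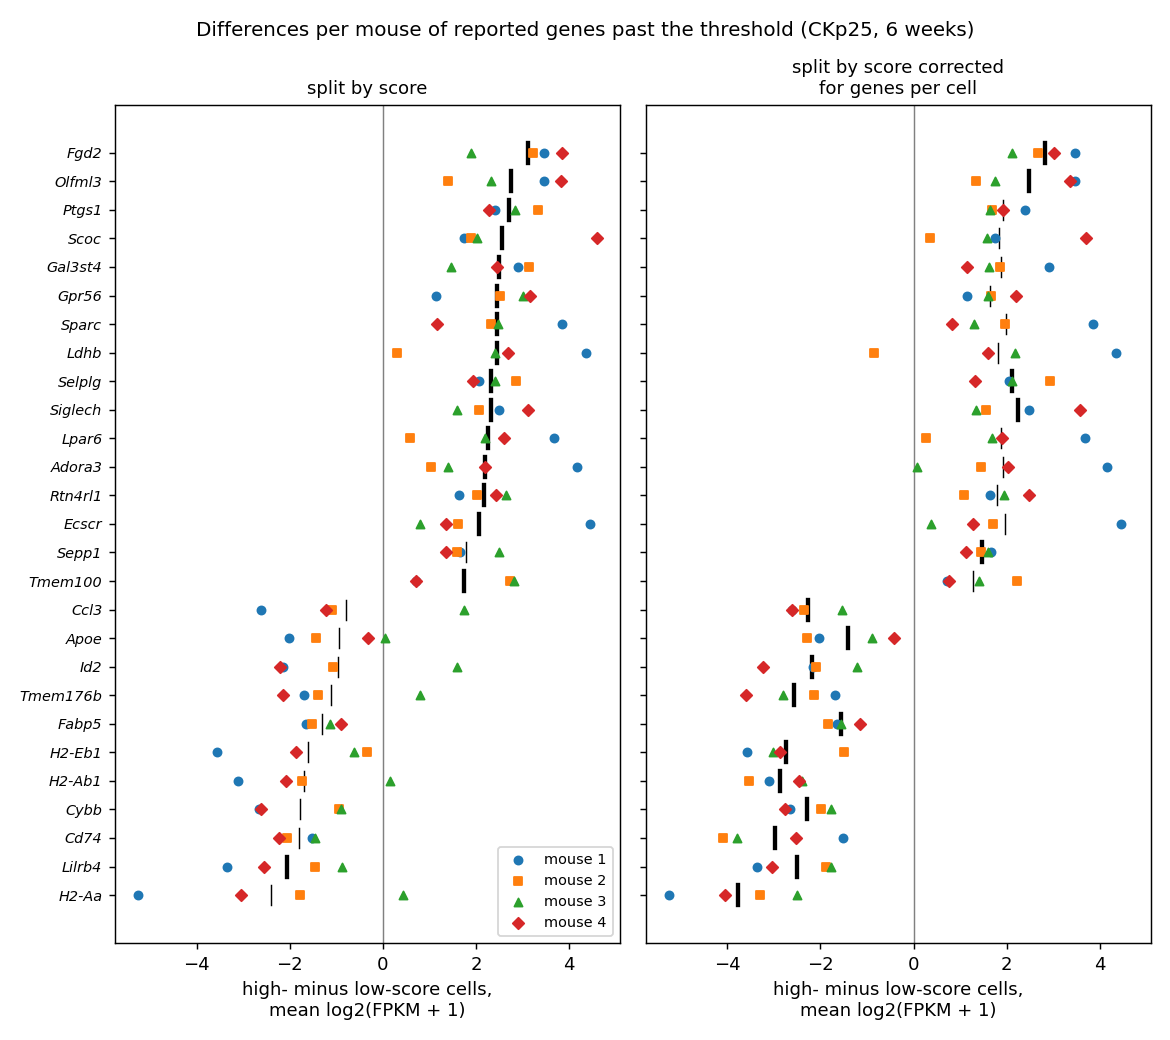
Difference of the reported genes past the threshold in either split (y axis, genes) in mean log2(FPKM + 1), high-score minus low-score cells (x axis), under the score (left) and the score corrected for genes per cell (right). Symbols are the 4 CKp25 mice and vertical bars their mean, thick where the gene passed; H2-Aa averages -2.41 with mouse 3 above 0 on the left, and -3.78 with all mice below 0 on the right.

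Cells with markers of a few other cell types were unequally divided between high- and low-score cells, which was not tested over mice. Border-associated macrophages are relatives of microglia that line vessels and meninges, carry CD11b and CD45 and would pass the sort. Of 12 markers of these cells, 3 or more were found in 1 of 74 high-score cells and 9 of 74 low-score cells. Their summed level ranged over the mice from 2.46 to 4.09 in high-score cells and from 1.83 to 12.4 in low-score cells. Of the defining markers, the mannose receptor Mrc1 and Ms4a7 were each found in 0 of 74 high-score cells and in 10 and 12 of 74 low-score cells. Other markers were less one-sided: Stab1 was found in 38 high-score and 28 low-score cells, and Cd163 in 3 and 4. Dendritic cell markers reached 3 in 0 high-score and 2 low-score cells, and astrocyte markers in 4 high-score and 0 low-score cells. In CK mice at 6 weeks border-associated macrophage markers did so in 1 of 59 high-score and 3 of 59 low-score cells. Astrocyte markers did so in 2 and 0 of these CK cells. With all cells that carried 3 or more markers of another type left out, the corrected split called 6 genes higher and 16 lower. The differences of H2-Aa and Cd74 were then -4.60 and -3.21. The correction balanced genes per cell less well in this fit. High-score minus low-score cells differed by -74.3 genes per cell, and high-score cells had more in 0 of 4 mice. Cells with fewer than 3 such markers stayed in, and their part in the results was not tested.

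The remaining gene lists had few called members, and their medians depended on the correction. Of 26 tested genes of phagocytic and lipid-handling activation 0 passed under the score (median 0.14) and 2 were lower under the corrected score (Apoe and Fabp5; median -0.69). Lpl, a lipase of activated microglia, had 1.88, 1.25, 1.89 and 2.12 in high-score cells, against 5.05, 4.14, 2.16 and 2.68 in low-score cells, and Spp1, osteopontin, had a difference of -1.60. Neither passed (adjusted p = 0.131 and 0.133). Cst7, a cystatin of the same programme, overlapped between the groups (difference -1.17, adjusted p = 0.328).

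Of 30 tested type I interferon genes 0 passed in either split, with medians of 0.03 and -0.45. Ifi27l2a, one of the most induced interferon genes in these mice, had 8.76, 8.23, 5.02 and 7.15 in high-score cells, against 4.02, 6.70, 0.94 and 7.78 in low-score cells, so mouse 4 went against the others (difference 2.43 ± 0.62, adjusted p = 0.0675). The 16 genes of MHC class I presentation had medians of 0.41 and -0.24 with 0 called.

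None of the microglial identity factors passed. Of 18 tested 17 had differences above 0 (median 0.73; 0.39 corrected). Sall1, which holds microglial identity, had 4.56, 3.98, 3.77 and 5.0 in high-score cells, against 2.76, 2.34, 1.88 and 2.54 in low-score cells, without overlap (difference 1.95 ± 0.52, adjusted p = 0.0805). The phagocytic receptor Mertk had a difference of 1.94 ± 0.53 (adjusted p = 0.0859), and the receptor Csf1r, on whose signal microglia depend, was found in every cell of both groups (difference 1.08, adjusted p = 0.222).

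Complement and Fc receptor genes had medians of 0.99 and 0.41 over 16 genes, lysosomal genes 0.60 and -0.07 over 28, and respiratory chain genes 0.42 and -0.09 over 30, with 0 called in each split. Of 36 cytosolic ribosomal protein genes 27 had differences above 0 under the score and 2 under the corrected score (medians 0.26 and -0.33). The glycolysis list of 14 genes had medians of -0.04 and -0.56, and 18 immediate early and dissociation genes 0.49 and 0.02. For the lysosomal, respiratory chain, ribosomal protein and immediate early lists the sign of the median or its place beside that of all genes turned with the correction. The sign of the median also turned for the phagocytic and lipid-handling, type I interferon and MHC class I lists given above. No direction is given for any of these lists.

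**Figure D4:**
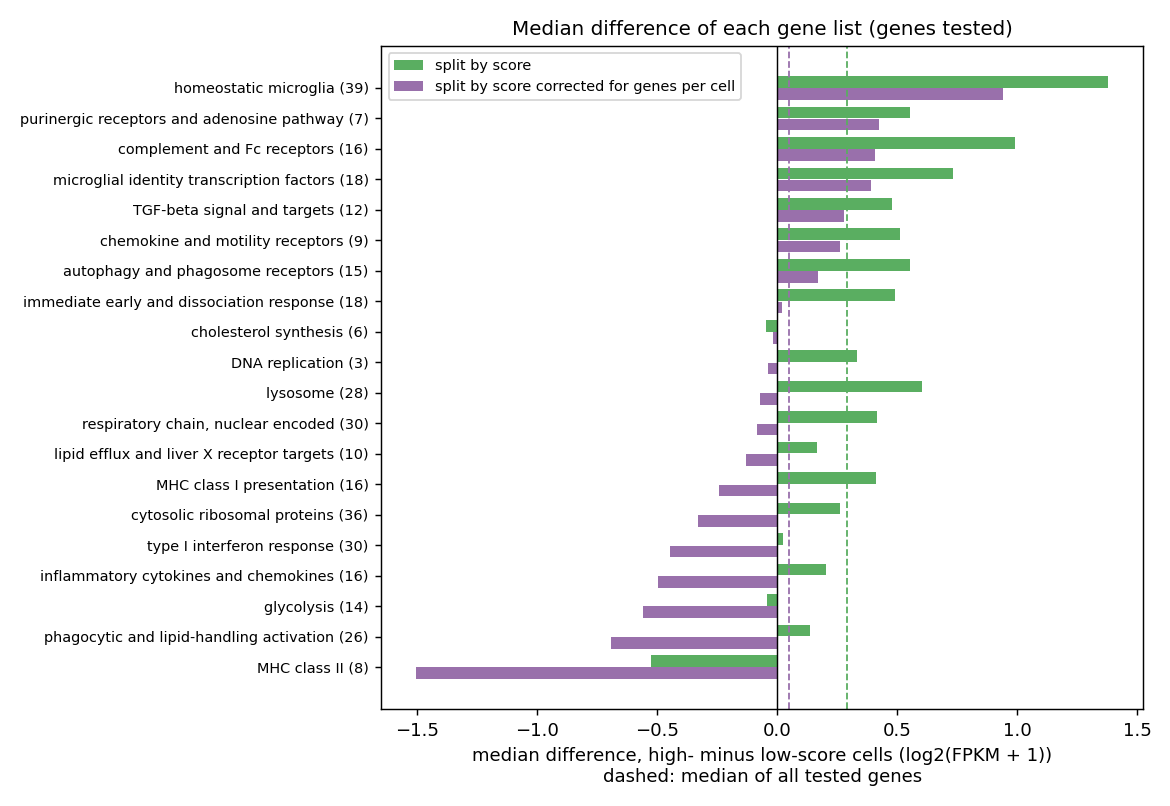
Median difference of each gene list, high-score minus low-score cells in mean log2(FPKM + 1) (x axis), by list with the number of genes tested (y axis). Bars stand for the score and the corrected score and dashed lines for the median of all tested genes (0.29 and 0.05); the homeostatic list stands highest (1.38 and 0.94) and MHC class II lowest (-0.52 and -1.50).

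The same split was made in the other groups of the series, as a description. The genes were picked by their differences in CKp25 mice at 6 weeks, which alone favours larger medians in that group. The 16 genes called higher had a median difference of 2.45 in CKp25 mice at 6 weeks and of 0.82, 1.21 and 2.03 in CKp25 mice at 0, 1 and 2 weeks. In CK mice it was 0.85, 0.78, 0.76 and 1.58 at 0, 1, 2 and 6 weeks. All 16 differences were above 0 in every group but CK at 0 weeks (13 of 16). By this uncorrected split the 16 genes thus also went with the score in control microglia. The split also separated CK cells at 6 weeks by 637 genes per cell. Medians of all genes are not given for the other groups, so a general shift cannot be told apart. The 11 genes lower under the corrected score had a median of -1.60 in CKp25 mice at 6 weeks by the uncorrected split, against -0.43 in CK mice at 6 weeks, where H2-Aa differed by -0.66.

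Whether the split itself differed between genotypes was tested at 6 weeks as the CKp25 difference minus the CK difference over 7412 genes. It called 0 genes higher and 0 lower (0%) in limma, with 132 and 190 at an unadjusted p under 0.05 and a smallest adjusted p of 0.993. The homeostatic genes illustrate it: Olfml3 differed by 2.75 between high- and low-score cells in CKp25 mice and by 1.37 in CK mice (difference of differences 1.38 ± 0.67), and Siglech by 2.31 and 1.59 (0.72 ± 0.73). With 4 and 3 mice such errors leave differences of this size undetected, and no equality follows.

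Cells at both ends of the score differed from CK cells at the same end. High-score cells of CKp25 mice had 137 genes higher (1.85%) and 32 lower (0.432%) than high-score cells of CK mice, and low-score cells had 88 higher (1.19%) and 8 lower (0.108%) than low-score cells of CK mice, of 7412 tested. The comparisons use the same CK mice, so their values are given side by side without a test of likeness. CKp25 cells at each end also scored lower than CK cells at that end (means of 7.98 to 8.98 against 9.90 to 10.05 for high-score cells).

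Apoe had 8.21, 12.30, 12.59 and 12.73 in high-score CKp25 cells, against 4.32, 4.73 and 6.60 in high-score CK cells (difference 6.24 ± 1.00, adjusted p = 0.00469). In low-score cells it had 10.24, 13.73, 12.54 and 13.05 in CKp25 mice, against 6.41, 5.35 and 6.30 in CK mice (difference 6.37 ± 0.79, adjusted p = 3.56e-09). All CKp25 mice lay above all CK mice at both ends, mouse 1 closest to them. Lgals3bp, a secreted glycoprotein, had 8.57, 8.89, 6.93 and 8.88 in high-score CKp25 cells, against 2.19, 2.27 and 2.41 in high-score CK cells (difference 6.03 ± 0.61, adjusted p = 3.46e-09), and with a difference of 5.91 ± 0.80 in low-score cells (adjusted p = 5.83e-08).

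Other genes high at both ends were Lyz2, lysozyme, with differences of 5.79 ± 0.60 in high-score and 4.50 ± 0.81 in low-score cells, and the class I heavy chain H2-D1, with 5.57 ± 0.59 and 4.76 ± 0.81. H2-D1 and H2-Q7 (4.87 ± 0.64 and 4.59 ± 0.71) share sequence with other class I genes, so their reads may be divided among copies. Cst7 differed by 4.50 ± 0.61 and 5.1 ± 0.76. Cd52, a surface glycoprotein of leukocytes, differed by 3.52 ± 0.64 and 5.01 ± 0.77, and the ribosomal protein gene Rplp2 by 2.91 ± 0.62 and 4.88 ± 0.83. Ifi27l2a was listed at 0 in every high-score CK cell and had 8.76, 8.23, 5.02 and 7.15 in high-score CKp25 cells (adjusted p = 7.03e-10). The filter on low values could be met through CKp25 mice alone, and the CK values add no spread. This p-value is therefore a description only.

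Of 8 tested class II genes 4 were above control at each end of the score. Cd74 had 5.43, 4.1, 4.53 and 6.32 in high-score CKp25 cells, against 0.44, 0.31 and 0.79 in high-score CK cells (difference 4.58 ± 0.61, adjusted p = 2.98e-06). In low-score cells Cd74 had 6.95, 6.15, 5.98 and 8.54 in CKp25 mice, against 2.08, 0.91 and 1.65 in CK mice (difference 5.36 ± 0.79, adjusted p = 9.19e-07). H2-Aa was listed at 0 in every high-score CK cell and had 1.33, 1.54, 2.48 and 2.51 in high-score CKp25 cells (adjusted p = 0.00269). Its p-value is a description only, as the filter could be met through CKp25 mice alone and the CK values add no spread. High-score cells, the nearest of these cells to the homeostatic state by rank, thus carried more Cd74 than high-score control cells in 4 of 4 mice.

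By list, of 30 type I interferon genes 15 were higher in high-score cells (median 1.73) and 16 in low-score cells (median 1.56), beside medians of -0.05 and -0.02 for all genes. Of 8 class II genes 4 were higher at each end, of 16 class I genes 7 and 5, and of 26 phagocytic and lipid genes 8 and 9. Of 36 ribosomal protein genes 24 were higher in high-score and 8 in low-score cells, although the medians were close (2.2 and 2.26).

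The genes below control were fewer. Ecscr had 4.46, 1.97, 1.18 and 1.69 in high-score CKp25 cells, against 6.05, 4.31 and 5.71 in high-score CK cells (difference -3.04 ± 0.68, adjusted p = 0.00478). In low-score cells it had 0, 0.36, 0.38 and 0.33 in CKp25 mice, against 2.36, 4.54 and 4.73 in CK mice (difference -3.61 ± 0.59, adjusted p = 9.57e-06). The groups overlapped at the high end through mouse 1 of the CKp25 group, and did not overlap at the low end.

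Further genes below control in high-score cells included Ckb, the brain creatine kinase (-3.21 ± 0.65), Cd164, a sialomucin (-3.16 ± 0.63), St3gal6, a sialyltransferase (-3.12 ± 0.65), and Mylip, a ubiquitin ligase for the LDL receptor (-2.48 ± 0.66). In low-score cells they included Slc40a1, the iron exporter ferroportin (-2.40 ± 0.62), and Tgm2, a transglutaminase (-1.66 ± 0.47). Rbm38, an RNA-binding protein, was listed at 0 in every low-score CKp25 cell and had 0.94, 1.22 and 1.23 in low-score CK cells. Of the 39 homeostatic genes 3 and 2 were lower (medians -1.03 and -1.33).

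**Figure D5:**
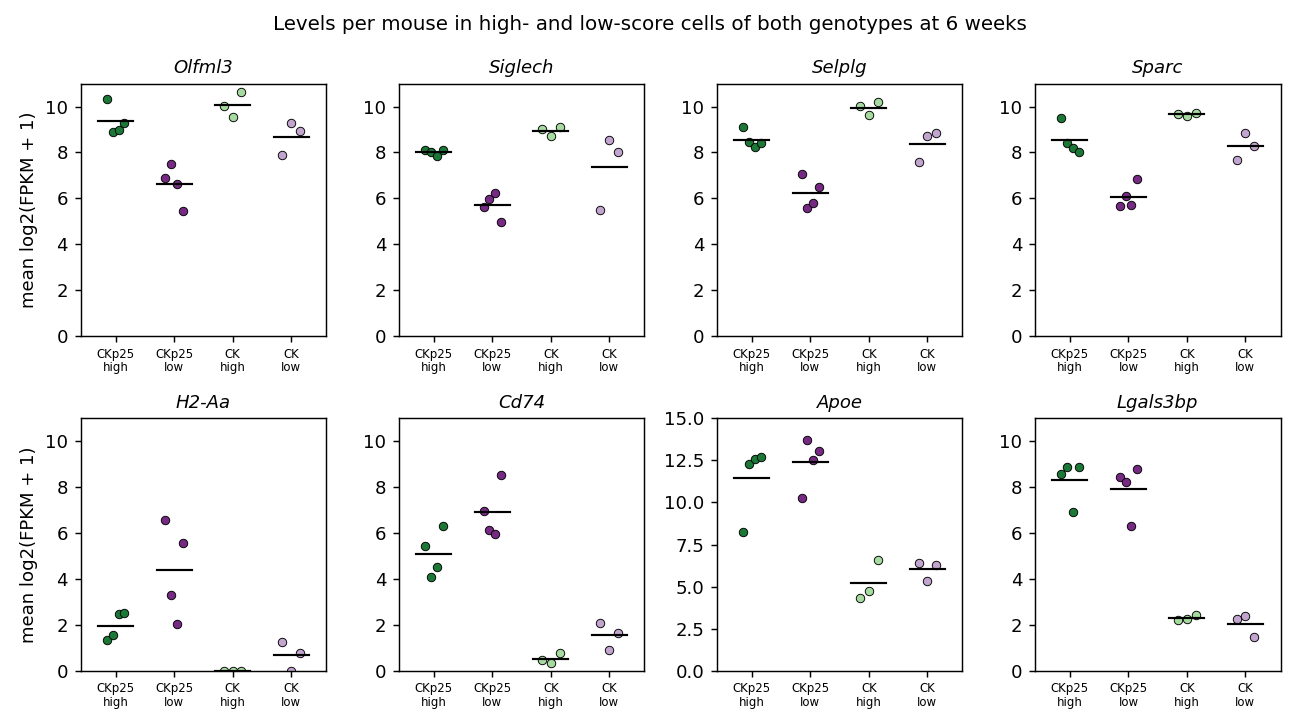
Levels of 8 genes in mean log2(FPKM + 1) (y axis) in high- and low-score cells of CKp25 and CK mice at 6 weeks (x axis); points are mice and lines means. Cd74, Apoe and Lgals3bp lie above CK in both groups of CKp25 cells, and H2-Aa is listed at 0 in all high-score CK cells.

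These counts also depended on single mice. In low-score cells 209 genes were called without CKp25 mouse 3, 55 without CKp25 mouse 2, 52 without CKp25 mouse 4, 36 without CK mouse 2 and 60 without CK mouse 3, rather than 96. In high-score cells leaving out CK mouse 1, 2 or 3 gave 104, 111 and 110 rather than 169. Quantile normalization gave 114 higher and 53 lower in high-score cells and 93 and 41 in low-score cells, and rescaling without the score genes, Rn45s and small RNA gave 84 and 23 in low-score cells.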

How the data were processed

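Each well is a single-cell Smart-seq2 library; the authors deposited one table of FPKM values, made with Cufflinks 2.2 on the mm9 build per the submitters' processing notes, and the read depth of each cell is not in it. All columns used were matched to the labels, and 0 columns of per-sample values were left unused. The mouse was the replicate. For each mouse and part, log2(FPKM + 1) was averaged over cells (13 to 26 per CKp25 part, 14 to 30 per CK part), and genes that reached an FPKM of 1 in 10% or more of all kept cells of a mouse, parts pooled, in 3 or more mice were tested with limma 3.58.1 (R 4.3.3; trend and robust variance, threshold 0.05). In the comparisons with CK mice the filter counted mice of either genotype, so a gene could enter through a single genotype. The mouse was a block between parts, since both come from the same animal (correlations of paired deviations 0.33, 0.10, 0.25 and 0.10). Single values were compared by exact sign-flip permutation. The fits were first run on values drawn independently for each gene, only to check that planted changes were estimated at the right size. That check did not simulate the choice of cells by score, zeros or genes per cell, so it does not bear on the calls. Other tools were Python 3.11.15, numpy 2.4.6, pandas 2.3.3, scipy 1.17.1 and matplotlib 3.10.9. Genes named are the 12 largest called each way between parts, the 6 largest each way against CK, the 5 largest each way for the difference of differences, and up to 4 members of each of 21 lists by smallest p, besides any member called. Predicted genes, RIKEN clones, small RNA, pseudogenes and ribosomal RNA were passed over. A few genes that the rule takes are not reported here. Members and lists were chosen with earlier results of these data known. Doublets were not called. Alternatives were other cuts, scores, pseudocounts, filters, scalings, cell sets and mice left out.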

Additional observations from a re-analysis of the deposited data

Results flagged for a closer look

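A sample was looked at again where its gap to the nearest other mouse, relative to the range of the 4 CKp25 mice, passed Dixon's 95% critical value for 4 values; of 74 such sets of values chance alone flags about 1 in 20, and 5 were flagged. The difference of Scoc between high- and low-score cells was 4.6 in mouse 4 and 1.74, 1.90 and 2.03 in mice 1, 2 and 3. Apoe in high-score cells had a level of 8.21 in mouse 1 and 12.30, 12.59 and 12.73 in the others; mouse 1 is also the one with little Rn45s. Lgals3bp in high-score cells had 6.93 in mouse 3 and 8.57, 8.89 and 8.88 in the others. Cd52 in low-score cells had 3.71 in mouse 3 and 6.9, 6.5 and 6.7 in the others; mouse 3 is also the one with the fewest genes in low-score cells. Ecscr in low-score cells was listed at 0 in mouse 1 and had 0.36, 0.38 and 0.33 in the others. The causes were not tested.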

How the results depend on the processing

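Genes called between high- and low-score cells (17) were 11 with cells cut at the median, 49 and 3 with pseudocounts of 0.1 and 10, 0 with no filter on low values (1182 higher and 126 lower at an unadjusted p under 0.05), 0 with the log2 of the mean FPKM (475 and 74), 37 after rescaling FPKM, 29 with quantile normalization, 59 with the first wells kept, 0 without cells with markers of another type, 6 without the suffixed wells, 0 with no replicate block and 245 with the spread from all 25 mice. Leaving out 1 mouse gave 1 to 20. With the corrected score the count (17) was 9 without the suffixed wells, 3 with no replicate block and 3 to 31 leaving out 1 mouse, and the difference in genes per cell was 1.59 (-20.3 without the suffixed wells and -74.3 without cells with markers of another type); under the score that difference ranged from 394 to 679 leaving out 1 mouse. The difference between genotypes (0) was 12 with all 12 CK mice and 0 leaving out any mouse or with a replicate block. High-score cells against CK (169) gave 261 cut at the median, 2 with no filter, 84 with the log2 of the mean, 282 with all 25 mice, 500 with all 12 CK mice and 104 to 176 leaving out 1 mouse. Low-score cells against CK (96) gave 169 with the corrected score, 203 cut at the median, 157 with 4 score genes, 57 with a pseudocount of 10, 0 with no filter (55 and 20 at an unadjusted p under 0.05), 29 with the log2 of the mean, 205 at 1500 genes per cell, 247 with all 25 mice, 510 with all 12 CK mice and 36 to 209 leaving out 1 mouse. CKp25 and CK mice of the same number had correlations of 0.12, 0.04 and -0.01 in high-score cells, and of 0.07, 0.04 and -0.06 in low-score cells. Mouse 1 of both genotypes had little Rn45s, and whether mice of the same number were processed together is not stated. A replicate block on that number gave 175 genes in high-score cells and 29 in low-score cells. The causes were not tested. Precision is limited by 4 and 3 mice, by 13 to 30 cells a part, and by zeros, which FPKM do not tell from low depth.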
